A study of Mus musculus with 2 samples.

Results

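Complement transcripts were followed in sorted brain microglia through 9 genes listed by symbol: the C1q chains C1qa, C1qb and C1qc, the components C3 and C4b, the anaphylatoxin receptors C3ar1 and C5ar1, and the integrin chains Itgam and Itgb2. Each of the 9 genes had a single row among the 31053 features of the count tables. The series holds 1 droplet library of wild-type (WT) cells and 1 library titled IRF8KO, each from microglia of 3 pooled female C57BL/6 mice aged 3 months, isolated without enzymes, untreated and sorted by flow cytometry. Both libraries shared the strain, age, sex and sort, and the labels gave no allele, promoter or Cre driver for the deletion of the transcription factor IRF8. Each group was therefore 1 pool without a replicate, which leaves genotype untestable. Its genotype field says WT although its title says IRF8KO, so the second library is called the library labelled IRF8KO. Irf8 itself stood at 794 CPM in WT cells and 669 CPM in the main IRF8KO population (CPM, UMIs of a gene per 1000000 UMIs of the population). The sources used here do not say which part of the gene was deleted, so this level does not check the label.

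Members were read in 3 populations of cells with at least 1000 UMIs, at least 500 detected genes and at most 10% mitochondrial UMIs. Counts are of UMIs, random tags by which copies of the same captured molecule are merged. The WT population held 3304 cells and 18543061 UMIs. IRF8KO cells with under 2% of their UMIs in the neutrophil granule genes Camp, Ngp, S100a8, S100a9, Lcn2 and Ltf, called granule-low, numbered 5007 and held 18980263 UMIs. The other IRF8KO cells numbered 98 and held 842948 UMIs. No WT cell reached the 2% limit, the highest granule-low cell was at 0.232%, and the lowest of the other IRF8KO cells was at 2.36%, followed by 6.82%. Median depth was 3204.5, 2933 and 7057.5 UMIs per cell in the 3 populations, with medians of 1682, 1379 and 1727 genes and of 2.09%, 3.70% and 1.05% mitochondrial UMIs; the part of these differences in the results was not tested.

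Complement is a cascade of plasma proteins that tags targets for removal and releases inflammatory peptides. C1q, assembled from equal numbers of A, B and C chains, starts the classical pathway; C4 and C3 are cleaved in turn, and C3 fragments left on a target are read by complement receptor 3, the integrin pair of Itgam (CD11b) and Itgb2 (CD18). The peptides C3a and C5a signal through C3ar1 and C5ar1. In the brain, microglia are the main source of C1q, and C1q, C3 and complement receptor 3 are known for their part in the removal of synapses.

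The 3 C1q genes lie side by side on the minus strand of mouse chromosome 4 (GRCm38), within 18675 bases: C1qb at chr4:136880129-136886187, C1qc at chr4:136889804-136893065 and C1qa at chr4:136895917-136898803. C3 lies at chr17:57203970-57228136 and C4b at chr17:34728380-34743882, both on the minus strand. C3ar1 (chr6:122847138-122856161) and C5ar1 (chr7:16246743-16259540) are also on the minus strand, and Itgam (chr7:128062640-128118491) and Itgb2 (chr10:77530252-77565708) are on the plus strand. All 9 are annotated as protein-coding. Upstream sequence is shown for C1qb and C1qc, the chains whose balance differed between the libraries, and for C3, the member with the highest ratio. It was taken from RefSeq (GRCm38.p6), is read 5′ to 3′ on the strand of the gene, and covers chr4:136886201-136886450 for C1qb, chr4:136893066-136893164 for C1qc and chr17:57228137-57228386 for C3. Capitals mark a match to 1 of 4 motifs.
C1qb: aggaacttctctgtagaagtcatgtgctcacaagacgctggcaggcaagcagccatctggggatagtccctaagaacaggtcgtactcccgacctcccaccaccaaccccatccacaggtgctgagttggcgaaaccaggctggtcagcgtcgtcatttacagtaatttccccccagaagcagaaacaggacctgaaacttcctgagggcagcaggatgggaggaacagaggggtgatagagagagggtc
C1qc: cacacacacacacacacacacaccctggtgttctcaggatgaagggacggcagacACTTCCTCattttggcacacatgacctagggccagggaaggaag
C3: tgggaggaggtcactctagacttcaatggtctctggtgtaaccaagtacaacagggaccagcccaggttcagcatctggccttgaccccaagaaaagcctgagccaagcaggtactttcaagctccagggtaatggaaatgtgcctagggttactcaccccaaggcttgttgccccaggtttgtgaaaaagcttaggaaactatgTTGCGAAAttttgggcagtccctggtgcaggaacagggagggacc

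RefSeq promoter windows of 300 bases (250 before and 50 after the annotated start) were found for 6 of the 9 genes: C1qb, C1qc, C3, C3ar1, C5ar1 and Itgam. Both strands of each were searched for the core of the interferon-stimulated response element (2 GAAA boxes 2 bases apart, present in 3.43% of 32817 promoters), a composite ETS-IRF element (GGAA and GAAA boxes 2 bases apart, 2.72%), a PU.1 site (GAGGAAGT, 3.20%) and a C/EBP site (TTNNGCAA, 10.8%). The first 2 motifs overlap in their letters. The C1qc window held 1 match to the PU.1 motif, on the opposite strand and beginning at position -195 from the start. The C3 window held 1 match to the C/EBP motif, on the opposite strand and beginning at position -45 from the start. These letters were not found in the windows of C1qb, C3ar1, C5ar1 and Itgam. A match describes the sequence and is not evidence of a bound site.

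C1q dominated the complement transcripts of WT and granule-low cells and was lower in the granule-low cells. Together the 9 genes made up 2.49% of all UMIs in WT cells, 1.23% in granule-low cells and 0.272% in the other IRF8KO cells. C1q supplied 95.2%, 91.3% and 51.9% of those member UMIs. The last value rests on 11 of the 98 other IRF8KO cells, which held 98.6% of their C1q UMIs. In the remaining 87 cells C1q had 17 UMIs and C3 had 396. Against WT cells, granule-low cells had 2.12-fold lower summed C1q, C3 at 40.5 CPM where WT cells had 4 UMIs in all, 1.86-fold higher C3ar1 and 2.37-fold lower Itgam. C5ar1, Itgb2 and C4b lay nearer to equal levels.

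**Figure D1:**
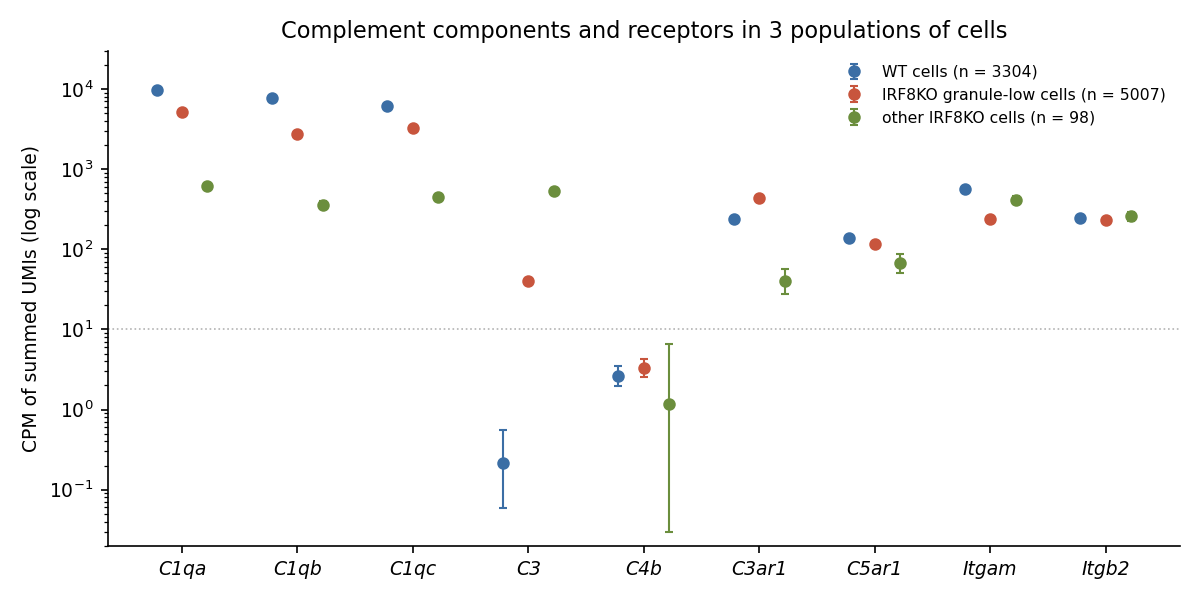
CPM of summed UMIs (log scale) of the 9 genes in WT, IRF8KO granule-low and other IRF8KO cells. Points are values of 1 library each, bars are exact Poisson 95% intervals for counting error only, and the dotted line marks 10 CPM; the 3 C1q chains are highest in WT cells, and C3 runs from 0.216 CPM in WT cells to 531 CPM in the other IRF8KO cells.

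Over the 9 genes, 2 were at least 2-fold lower in granule-low cells (C1qb and Itgam), 1 was at least 2-fold higher (C3) and 6 were within 2-fold. Among all 8859 genes with at least 10 CPM in either population, 9.28% were at least 2-fold lower and 5.61% at least 2-fold higher. The median log2 ratio was -0.22 over the 9 genes (the value of C5ar1) and -0.28 over all genes. The members lay on both sides, 4 of them at or below the 10.6th percentile of all genes and C3ar1 and C3 at the 93.7th and 99.7th. Ratios used total UMIs, and Apoe alone took 8.83% of UMIs in granule-low cells against 0.0478% in WT cells. Of all genes past 2-fold, 62.3% were lower and 37.7% higher with total UMIs, against 45.4% and 54.6% with TMM scaling. Each of the 3 other scalings raised every log2 ratio by 0.23 to 0.31. C3ar1 then passed 2-fold higher under all 3. Itgam was no longer 2-fold lower under 2 of them.

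**Figure D2:**
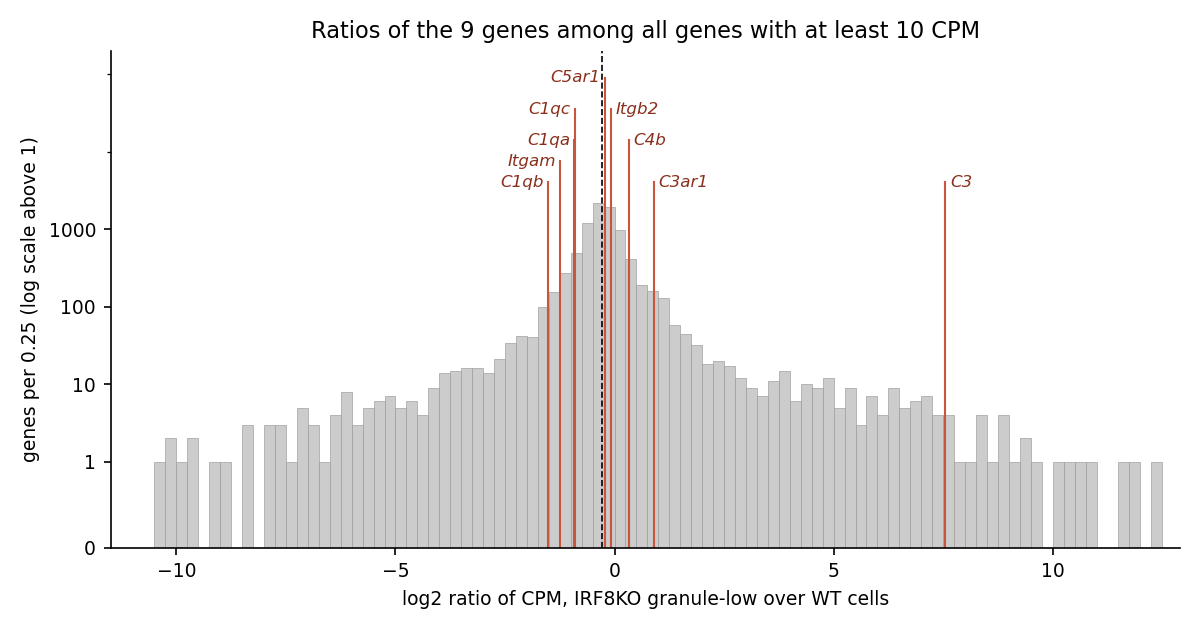
Number of genes (log scale above 1) by log2 ratio of CPM in IRF8KO granule-low over WT cells, for the 8859 genes with at least 10 CPM; red lines mark the 9 complement genes and the dashed line the median of all genes, -0.28. C3 stands far to the right at 7.55, C1qb and Itgam lie in the left flank, and C4b, under 10 CPM, is marked but not counted in the bars.

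C1qa, which encodes the A chain, was at 9840 CPM in WT cells, 5216 CPM in granule-low cells and 616 CPM in the other IRF8KO cells. C1qb was at 7778, 2714 and 356 CPM, and C1qc was at 6135, 3259 and 444 CPM. The levels therefore ran in the order C1qa, C1qb, C1qc in WT cells and C1qa, C1qc, C1qb in granule-low cells. The values of the other IRF8KO cells rest on 11 of the 98 cells, and in the remaining 87 the chains had 8, 4 and 5 UMIs, too few for an order. The log2 ratio of granule-low over WT cells was -0.92 for C1qa (95% interval for counting error -0.93 to -0.90), -0.91 for C1qc (-0.93 to -0.90) and -1.52 for C1qb (-1.53 to -1.50). C1qb thus lay 0.60 on the log2 scale further down than the other chains (a difference of -0.60), and this gap does not depend on how totals are scaled. C1qb stood at the 4.37th percentile of all genes, and C1qa and C1qc both stood at the 10.6th.

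The lower C1q level was spread over the cells and was not confined to a few of them. The median cell held 79 C1q UMIs in WT and 32 in the granule-low population. With every cell thinned to 1000 UMIs, the median was 24 (quartiles 19 and 28) in WT cells and 10 (quartiles 7 and 14) in granule-low cells. Of granule-low cells, 70.4% (exact binomial interval 69.1 to 71.6%) had fewer than 14, the value that marks the WT 5th percentile. C1q was still detected almost everywhere: C1qa had a UMI in 99.9% of WT and 99.9% of granule-low cells, and C1qb in 99.9% and 98.2%. After thinning to 1000 UMIs, C1qb was found in 99.8% of WT and 87.2% of granule-low cells. The other IRF8KO cells, marked by granule genes of neutrophils, which are not known as a source of C1q, had a C1qb UMI in 15.3% of cells at a median depth of 7057.5 UMIs (8.16% after thinning).

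The balance of the C1q chains differed between the libraries. UMIs are not scaled by transcript length and capture can differ between genes, so the shares below compare populations and are not molar ratios. In WT cells 41.4% of C1q UMIs were C1qa, 32.7% C1qb and 25.8% C1qc. In granule-low cells the shares were 46.6%, 24.3% (exact interval 24.1 to 24.4%) and 29.1%. C1qa per C1qc was 1.60 in both populations, whereas C1qa per C1qb was 1.27 in WT and 1.92 in granule-low cells. C1qb per C1qc went from 1.27 (1.26 to 1.28) in WT cells to 0.833 (0.823 to 0.843) in granule-low cells. In the other IRF8KO cells it was 0.802 (0.687 to 0.936), but 98.6% of their C1q UMIs lay in the same 11 cells, so this ratio does not describe that population.

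The same shift was present cell by cell. C1qb UMIs outnumbered C1qc UMIs in 76.2% of WT cells (74.7 to 77.7%) and in 29.4% of granule-low cells (28.2 to 30.7%). When 20 C1q UMIs were drawn from each cell that had them, the C1qb share had a median of 30% over 3290 WT cells and of 25% over 4055 granule-low cells, with means of 32.8% and 23.6%. The draw left out 14 WT and 952 granule-low cells with fewer than 20. At this draw the cell distributions overlapped widely, with standard deviations of 10.9 and 10.7 percentage points. With all C1q UMIs of the same cells they were 6.05 points in WT and 8.43 points in granule-low cells. The draw of 20 UMIs thus added to the spread and the overlap.

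**Figure D3:**
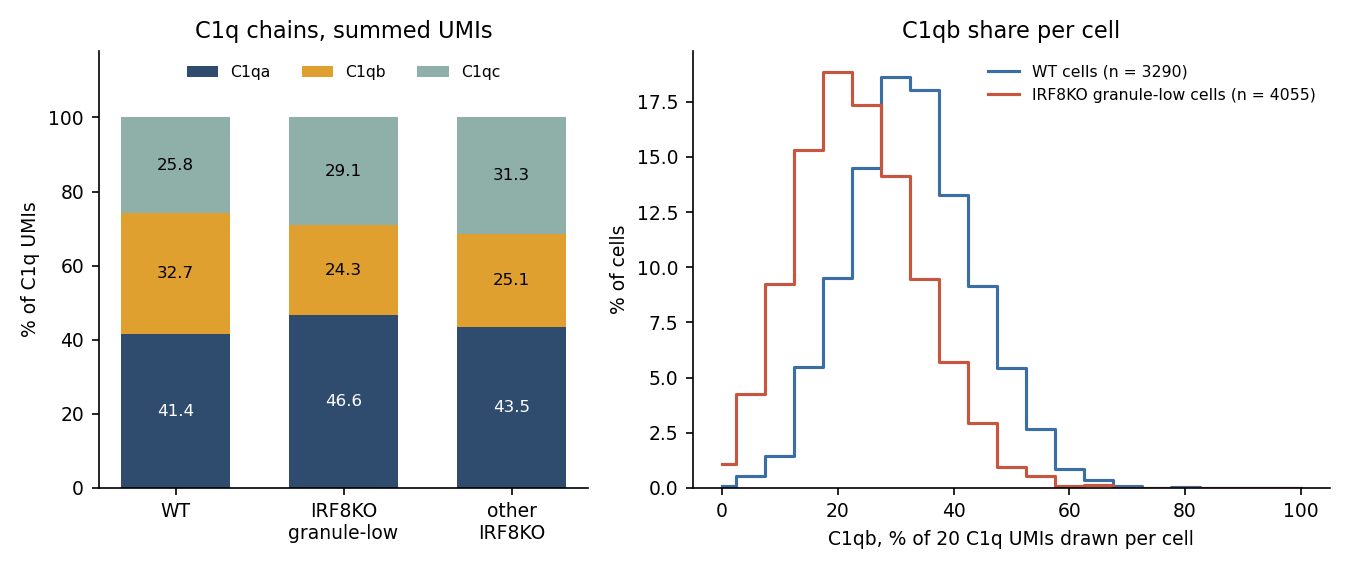
Left, share of summed C1q UMIs taken by each chain in the 3 populations, in %; right, % of cells by the C1qb share among 20 C1q UMIs drawn per cell, in WT (n = 3290) and IRF8KO granule-low cells (n = 4055). C1qb takes 32.7% of C1q UMIs in WT cells and 24.3% in granule-low cells. The per-cell distribution is shifted lower in the latter, with wide overlap to which the draw of 20 UMIs adds.

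Within the granule-low population the C1qb share differed by a few percentage points between some classes of cells. Cells were ordered by UMIs of listed genes per 1000 UMIs. Over the classes of interferon-response UMIs (0, 1, 2 to 4, and 5 or more), the C1qb share in granule-low cells was 23.6%, 24.5%, 24.8% and 26.6% (25.7 to 27.4%, 224 cells). In WT cells it was 32.7%, 32.9%, 33.4% and 31.7%, the last class resting on 8 cells. Over quintiles of the homeostatic microglia list, the share in granule-low cells was 26.0% in the lowest and 22.4% in the highest, whose median depths were 3259.5 and 2554 UMIs. Over quintiles of depth it ran from 21.9% in the shallowest to 25.7% in the next to deepest and 24.6% in the deepest, a range much like that over the homeostatic quintiles; the part of depth in the latter was not tested. Over quintiles of Apoe it stayed between 23.8% and 24.6%. All of these granule-low values lay below every WT class, which ranged from 31.7% to 34.2%. Summed C1q in granule-low cells was 10829 CPM in the lowest and 12971 CPM in the highest interferon class. It was 10796 CPM in the lowest and 12472 CPM in the highest homeostatic quintile. The classes are cells of 1 library, not replicates.

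C3, the central component that all activation routes converge on, was close to undetected in WT cells: 4 UMIs in 4 of 3304 cells, or 0.216 CPM (0.0588 to 0.552). Granule-low cells had 769 UMIs, 40.5 CPM (37.7 to 43.5), and the other IRF8KO cells had 448 UMIs, 531 CPM (483 to 583). Granule-low cells were therefore 188-fold above WT cells, with a counting interval from 73.1-fold to 691-fold, at the 99.7th percentile of all genes. The other IRF8KO cells were a further 13.1-fold above the granule-low cells. A C3 UMI was found in 0.121% of WT, 11.5% of granule-low and 99.0% of the other IRF8KO cells. After thinning to 1000 UMIs the shares were 0.0303%, 4.01% and 38.8%.

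In the granule-low population C3 was thinly spread. Of the 578 cells with a UMI, 447 had exactly 1, 131 had 2 or more and the highest had 6; the 50 cells with the most C3 held 20.8% of its UMIs. The other IRF8KO cells are rich in C3 and share the library, so C3 was set beside the granule genes that those cells also carry. Granule genes in granule-low cells stood at 0.0125% of their level in the other IRF8KO cells, and C3 at 7.62%. The granule value follows from the rule that split the populations, so it is no independent yardstick for C3. Whether C3 UMIs passed between cells of the library was not tested. C3 was 40.2 CPM (37.0 to 43.5) in the 4191 granule-low cells without any granule UMI and 41.7 CPM (35.8 to 48.2) in the 816 with one. This split also uses the genes of the rule. The 4191 cells held 14662513 UMIs and the 816 held 4317750, so the latter were deeper per cell. The part of depth in these 2 values was not tested. Across quintiles of depth C3 ran from 25.3 CPM in the shallowest to 45.4 CPM in the next to deepest and 44.8 CPM in the deepest. Across quintiles of Apoe, the apolipoprotein gene at 88320 CPM in granule-low and 478 CPM in WT cells, it was 33.4 CPM in the lowest quintile and 37.0 CPM in the highest, with no steady order. Cells with a C3 UMI were near those without in C1qa (5432 and 5165 CPM) and C3ar1 (438 and 439 CPM), and were deeper (median 3737 and 2863 UMIs). In the same order, Itgam was at 265 and 236 CPM, C5ar1 at 98.1 and 121 CPM, and the macrophage gene Ms4a7 at 779 and 617 CPM.

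C4b, a source of the C4 fragment that joins the classical pathway convertase, was low everywhere. It had 49 UMIs in WT cells (2.64 CPM), 63 in granule-low cells (3.32 CPM) and 1 in the other IRF8KO cells. The log2 ratio of granule-low over WT cells was 0.33 with an interval from -0.23 to 0.90, so no difference was detectable at this depth. The WT cells with a C4b UMI had a median of 12679 UMIs, against 3189 in the rest. C4a, its near-identical neighbour, has no row in the feature table used, so the assignment of reads between the copies is uncertain.

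The receptors for C3a and C5a had unlike ratios. C3ar1 was at 236 CPM in WT cells (229 to 243) and 439 CPM in granule-low cells (430 to 449), a log2 ratio of 0.90 (0.84 to 0.95) at the 93.7th percentile of all genes. C5ar1 was at 137 CPM and 117 CPM, a log2 ratio of -0.22 (-0.31 to -0.14) that became 0.0082 to 0.090 under the 3 other scalings. C3ar1 UMIs per C5ar1 UMI were 1.73 (1.64 to 1.81) in WT and 3.76 (3.58 to 3.94) in granule-low cells. The share of cells with a C3ar1 UMI after thinning to 1000 was 20.2% in WT and 35.0% in granule-low cells (unthinned 53.1% and 68.5%), against 2.04% in the other IRF8KO cells (unthinned 8.16%). For C5ar1 the thinned shares were 12.6% and 11.1%. Both receptors together were seen, at 2000 UMIs per cell, in 9.34% of WT and 11.0% of granule-low cells.

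Both receptors were higher in cells with many UMIs of immediate early and inflammatory genes (Fos, Jun, Egr1, Ccl3, Ccl4, Tnf, Il1b and others). In WT cells C5ar1 was 130 CPM in cells with none of these UMIs per 1000 and 565 CPM (447 to 705) in the 34 cells with 5 or more. In granule-low cells the same classes had 106 CPM and 191 CPM (147 to 243, 96 cells). C3ar1 went from 225 to 645 CPM (518 to 793) in WT cells and from 420 to 605 CPM (524 to 694) in granule-low cells. The gap in C3ar1 between the libraries was thus present in the low classes, while in the highest class the intervals overlapped.

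**Figure D4:**
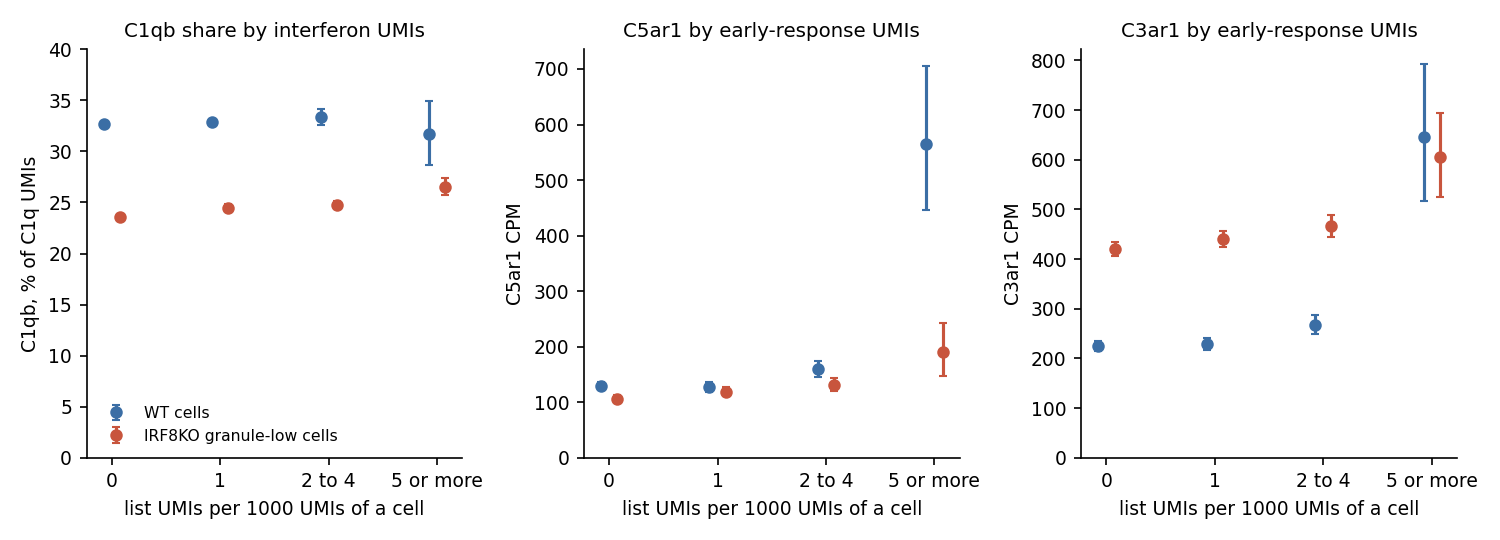
C1qb share of C1q UMIs by class of interferon UMIs (left), and CPM of C5ar1 (middle) and C3ar1 (right) by class of immediate early and inflammatory UMIs, each per 1000 UMIs of a cell, in WT and IRF8KO granule-low cells; bars are exact 95% counting intervals. The C1qb share stays lower in granule-low cells in every class, and C5ar1 is highest, at 565 CPM, in the 34 WT cells of the top class.

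The chains of complement receptor 3 differed to unequal degrees. Itgam, the alpha chain, was at 573 CPM in WT, 241 CPM in granule-low and 410 CPM in the other IRF8KO cells. Its log2 ratio of granule-low over WT cells was -1.25 (-1.30 to -1.20), at the 6.22th percentile of all genes. Itgb2, the beta chain shared with other leukocyte integrins, was at 245, 231 and 259 CPM; its log2 ratio of -0.083 (-0.14 to -0.023) became 0.15 to 0.23 under the 3 other scalings. Itgam UMIs per Itgb2 UMI were 2.34 (2.26 to 2.43) in WT cells, 1.05 (1.003 to 1.09) in granule-low cells and 1.59 (1.34 to 1.89) in the other IRF8KO cells. At 2000 UMIs per cell, both chains were seen in 23.1% of WT and 12.7% of granule-low cells. The product of the single shares was 23.3% and 12.5%, so the chains were seen together about as often as their separate frequencies give. The share with neither was 23.2% and 42.0%.

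In the other IRF8KO cells the C1q chains and C3ar1 were lower than in granule-low cells and C3 was higher. Of the 9 genes, 5 were at least 2-fold lower, near the background of 44.9% of 8798 genes, and 1 was at least 2-fold higher (background 11.4%). The fifth lower gene was C4b, on a single UMI with an interval of -6.81 to 1.05 (log2). The log2 ratio of the other IRF8KO over granule-low cells was -3.08 for C1qa, -3.44 for C3ar1, -0.79 for C5ar1, 0.77 for Itgam and 0.16 (-0.039 to 0.36) for Itgb2. TMM factors and median-of-ratios factors each added a constant to these log2 ratios, which took C1qa from -3.08 to -2.41 and -2.33. Totals without mitochondrial, ribosomal protein and Apoe UMIs lowered them by a smaller constant, which took C1qa to -3.41. Under the 3 scalings in that order, Itgam was at 1.44, 1.52 and 0.43, past 2-fold under the first 2. C5ar1 was at -0.11, -0.036 and -1.12, and Itgb2 was at 0.84, 0.92 and -0.17, so its sign is not settled. C1qa stayed between -3.41 and -2.33 under them, and C3, at 3.71, between 3.38 and 4.47. The neutrophil marker list summed to 389890 CPM in these cells, with 9 of 10 markers at 10 CPM or more. Of these 10, 6 are the granule genes that define the population and supply 389606 CPM, so the sum follows from the definition. Among the rest, Retnlg was at 92.5 CPM (a UMI in 33.7% of cells), Elane at 157 CPM (9.18%) and Cxcr2 at 34.4 CPM (21.4%). Mpo had no UMI. The 5 monocyte markers summed to 11795.5 CPM in these cells, mostly Chil3 at 10935 CPM (a UMI in 100% of cells). Ly6c2 was at 516 CPM (95.9%), Plac8 at 336 CPM (71.4%) and Ccr2 at 8.30 CPM (3.06%), and Vcan had no UMI.

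C1q in the other IRF8KO cells came from few of them. Of the 98 cells, 74 had no C1q UMI, 13 had 1 to 3, and 11 had 14 or more and held 98.6% of the C1q UMIs. Those 11 cells had a median of 27.8% granule UMIs against 45.6% in the rest, 2.89% Apoe UMIs against 0.0462%, and 11473 UMIs per cell against 6611. Without them, a step chosen after these values were seen, the remaining 87 cells had C1q at 25.8 CPM (15.0 to 41.3), which is 0.231% of the granule-low level, and 1 C3ar1 UMI. C3 was 601 CPM (543 to 663) in them, with a UMI in 86 of 87 cells, and C5ar1 was 65.3 CPM. Itgam was 430 CPM and Itgb2 was 263 CPM. No doublet caller was run, and whether these 11 barcodes hold more than 1 cell was not tested.

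**Figure D5:**
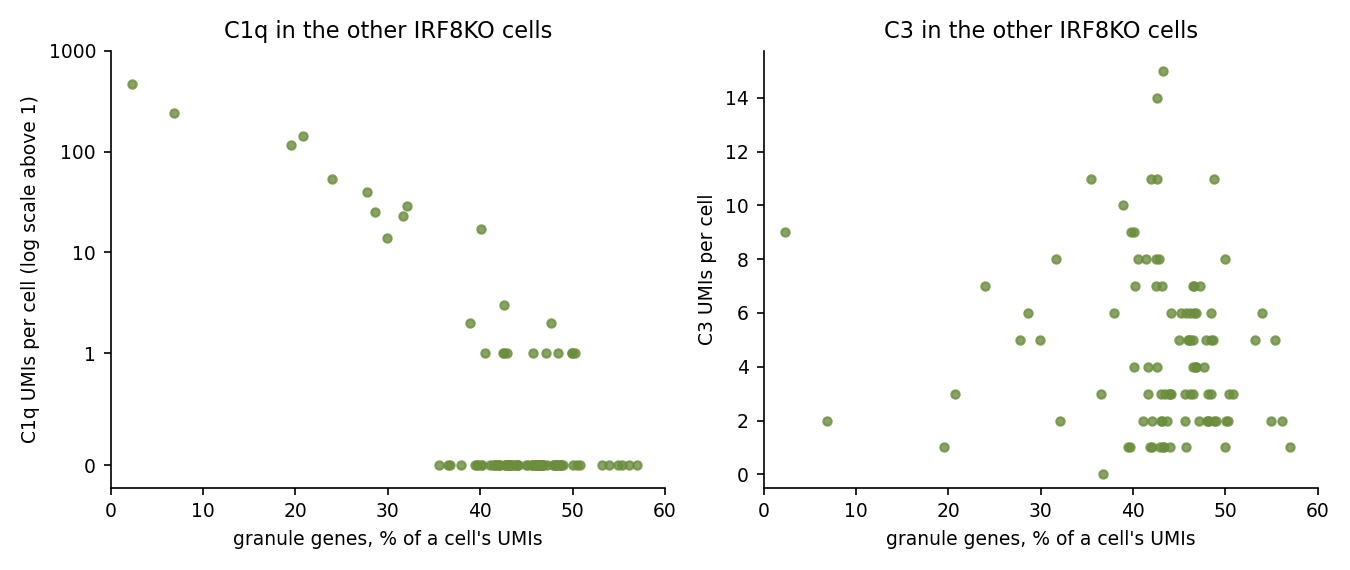
Each point is 1 of the 98 other IRF8KO cells: C1q UMIs (left, log scale above 1) and C3 UMIs (right) against the share of the cell's UMIs in granule genes, in %. Cells with 14 or more C1q UMIs lie towards lower granule shares, whereas C3 is found in 97 of 98 cells across the range.

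Beyond the 9 genes, 46 of 47 listed complement genes were in the feature table, 16 of them had no UMI in any population, and 8 reached 10 CPM in WT or granule-low cells. Against 5.61% of all 8859 genes with at least 10 CPM, 2 of these 8 were at least 2-fold higher in granule-low than in WT cells. They were Cfp, which encodes properdin and stabilises the alternative pathway convertase, at 1.24 CPM in WT and 25.9 CPM in granule-low cells (log2 ratio 4.38), and Itgal, the alpha chain of another Itgb2 integrin, at 2 WT UMIs and 15.2 CPM (141-fold, counting interval 38.7-fold to 1171-fold). Itgal fell outside the rule for named genes and was picked after its values were seen. The second C5a receptor, C5ar2, was at 84.8 and 104 CPM, and the membrane regulator Cr1l was at 165 and 144 CPM. Lrp1, Calr and C1qbp, proteins reported to bind C1q or its targets, had log2 ratios of -0.089, -0.46 and -0.11. Of 7 genes of the terminal pathway, 5 had no UMI in WT or granule-low cells.

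Marker lists of other cell types differed beside these results. The 10 microglia markers summed to 28077 CPM in WT cells, all at 10 CPM or more, and to 13464 CPM in granule-low cells, with 9 at 10 CPM or more. In granule-low cells 8 of them were lower than in WT cells, most of all Sall1 (2.85 CPM against 511 CPM in WT). The 2 higher ones were Fcrls (1891 CPM against 1792 CPM in WT) and Olfml3 (1268 CPM against 1206 CPM in WT). The 9 border macrophage markers summed to 14.1 CPM in WT cells, with 1 at 10 CPM or more and 5 without a UMI, among them Ms4a7 and Lyve1. They summed to 2852 CPM in granule-low cells, with 5 at 10 CPM or more. In these cells 7 of the 9 were higher than in WT cells, led by Pf4 at 1462 CPM. Folr2 was lower (0.211 CPM against 1.73 CPM in WT), and Lyve1 had 2 UMIs (0.105 CPM). Neutrophil markers summed to 2.48 and 54.3 CPM, and astrocyte markers to 215 and 30.9 CPM. Of the astrocyte sums, Slc1a3 gave 212 and 26.7 CPM, with a UMI in 50.9% of WT cells. The other astrocyte markers were under 10 CPM, and Gfap (0.216 and 0.421 CPM) and Aldoc (2.05 and 3.69 CPM) went the other way. The part of cell composition in the ratios of C1q, C3, C3ar1 and Itgam was not tested. The libraries shared 5 cell barcodes.

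Correlations of the members with other genes from cell to cell reached at most r = 0.38, and only the 3 highest per member were kept. Among genes with at least 200 CPM, in cells thinned to 1000 UMIs, the summed C1q UMIs correlated most with Cst3 (r = 0.38), Itm2b (0.22) and Ctss (0.21) over 3304 WT cells. Over 5007 granule-low cells they correlated most with Ly6e (0.26) and Cst3 (0.21). No other member reached r = 0.2 with any gene; the highest was 0.080. Between the chains of C1q, r was 0.17 to 0.26 in WT and 0.29 to 0.33 in granule-low cells. Itgam and Itgb2 had r of 6.4e-05 and 0.0073. The cells of a population share 1 library, and in counts this sparse a weak correlation is not a finding.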

How the data were processed

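Droplet single-cell RNA sequencing of sorted microglia gave 1 WT and 1 IRF8KO library. Each deposited matrix gives UMI counts, as whole numbers, for genes and barcodes. The authors used bcl2fastq, Cell Ranger 3.1 and Scanpy with build mm10, per the submitters' processing notes, and software 3.1.0 wrote the matrices, per the file headers. The labels' protocols also name a low-input full-length kit; the values have the form of droplet counts and were treated as such. The sources used here do not give annotation, alignment settings or cell calling. The files hold 3504 WT and 5303 IRF8KO barcodes with 18706147 and 19998075 UMIs.

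The filters kept 3304 WT and 5105 IRF8KO cells. Counts were summed per population and divided by its total to CPM; deposited counts were not altered. A ratio against 0 used a floor of 3 counts. With 1 library per group there was no test: intervals are exact 95% Poisson (CPM), conditional binomial (ratios) and Clopper-Pearson (shares) intervals and cover counting error only, since cells are not replicates. Cells were thinned at random to 1000 UMIs, or to 2000 in 3019 WT, 4509 granule-low and 97 other IRF8KO cells. No doublets were removed.

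The members and gene lists were chosen with earlier results of these data known. All 9 members are named, and of the wider complement list the genes with at least 20 CPM, except 1 that is not reported here; correlated genes are named at r of 0.2 or more. Gene IDs were matched to GENCODE M21 (30934 of 31053). Alternatives covered scaling (edgeR 4.0.16 for TMM factors), weighting of cells, cell filters, the deepest 5% of cells and the granule limit. The interval and ratio code was tested on simulated data. Python 3.11.15, numpy 2.4.6, scipy 1.17.1, pandas 2.3.3 and R 4.3.3 were used.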

Additional observations from a re-analysis of the deposited data

Results flagged for a closer look

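C3 and C3ar1 were also counted in barcodes that the cell filter leaves out, which enter none of the comparisons, and both stood above the level in the WT library there. In the 198 left-out IRF8KO barcodes C3 had 16 UMIs, 91.5 CPM (52.3 to 149), of which all 16 lay in the 197 barcodes with under 2% granule UMIs. Those 197 barcodes were at 91.8 CPM (52.5 to 149), above the kept granule-low cells at 40.5 CPM (37.7 to 43.5). The cause of this difference was not tested. The 200 left-out WT barcodes had 0 C3 UMIs, which allows up to 18.4 CPM at a floor of 3 counts. C3ar1 was at 406 CPM (317 to 512, 71 UMIs) in the left-out IRF8KO barcodes and at 153 CPM (99.2 to 226, 25 UMIs) in the left-out WT barcodes.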

How the results depend on the processing

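TMM factors, median-of-ratios factors, and totals without mitochondrial, ribosomal protein and Apoe UMIs shifted the median of all genes up by 0.25, 0.23 and 0.31 (log2). In that order, the median over the 9 genes became 0.030, 0.0082 and 0.090, the ratio of C5ar1, the middle gene, 0.030, 0.0082 and 0.090, that of Itgb2 0.17, 0.15 and 0.23, and that of summed C1q -0.83, -0.85 and -0.77. Members at least 2-fold higher numbered 2 under each of the 3. Members at least 2-fold lower numbered 1 with TMM factors and with the reduced totals. Lower and higher genes made up 46.6% and 53.4% of those past 2-fold with median-of-ratios factors, and 42.1% and 57.9% with reduced totals. The cause of these shifts lies in the scaling itself, which adds 1 constant to every ratio. Summed C1q was -1.07 with the stricter cell filter and -1.07 without the 5% of cells with most UMIs. The C1qa share of WT cells was 41.2% with cells weighted equally and 41.2% without the deepest 5%, and the C1qb share 33.0% without the deepest 5%. In granule-low cells the C1qa share was 47.2% and the C1qb share 23.1% with equal weight, and the C1qb share was 24.1% with the stricter filter; the cause was not tested. C1qa, C1qb, C1qc, C3, C4b, C3ar1 and Itgam kept their sign in all 9 settings, C3 between 6.65 (equal weight) and 7.92 (stricter filter). Counting all genes with more than 3 UMIs, 23.9% passed 2-fold against 14.9%. Without the 11 C1q-rich cells, the log2 ratio of C1qa in the other IRF8KO cells over granule-low cells went from -3.08 to -8.75; it was -4.72 without the deepest 5% and -4.34 with equal weight. Members at least 2-fold lower there numbered 4 to 6 over all settings. No paired analysis was possible because each group is 1 library, and no replicate could be left out. Depth limits C4b, and C3 in WT cells, where 4 UMIs set the ratio.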

Other observations

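Fcnb, which encodes a ficolin of the lectin pathway stored in myeloid granules, was at 378 CPM (338 to 422) in the other IRF8KO cells, with a UMI in 68.4% of them. It had 0 UMIs in WT and granule-low cells, which allows up to 0.162 and 0.158 CPM at 3 counts. It was picked after its values were seen. Masp1, a lectin pathway protease, had 63 UMIs in WT cells (3.40 CPM) and 9 in granule-low cells (0.474 CPM), and Itgax, the alpha chain of complement receptor 4, was at 4.75 and 9.75 CPM; both were under 10 CPM in either population and were also picked after their values were seen.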
